A study of Mus musculus with 20 samples.

Results

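The Slit and Robo genes are a family of 7, with 3 secreted ligands (Slit1, Slit2 and Slit3) and 4 receptors (Robo1, Robo2, Robo3 and Robo4), out of 22367 protein-coding genes of the mouse annotation. They were chosen as a named family with earlier results of these data known, and were selected on their peaks and bases covered by tissue and genotype, so those values are given below as a description without a test. Each gene was taken as its gene body plus 2 kb on either side, a stretch called its window here. Together the 7 windows hold 2.0116 Mb of the NCBIM37 (mm9) genome, with the 2355 bases shared by the neighbouring Robo3 and Robo4 windows counted once.

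5-formylcytosine (5fC) was mapped by chemical pull-down and sequencing in hindbrain, heart, liver and carcass (the rest of the embryo) of mid-gestation E11.5 mouse embryos. 5fC is an oxidised form of methylated cytosine that the TET enzymes make and that TDG, thymine-DNA glycosylase, excises. WT embryos carried the wild-type Tdg gene, and Tdg null embryos (knock-out) lacked the catalytic domain of TDG in every cell, a neomycin resistance gene standing in its place in the germline allele. The 20 libraries came from 12 embryos of 6 litters: litters A, O, Q and Z each gave the hindbrain of 1 WT and 1 Tdg null embryo, and the litters pair_a and pair_b each gave the heart, carcass and liver of 1 embryo per genotype. Hindbrain and the other tissues thus came from different litters, so tissue and litter cannot be told apart where hindbrain is set against them. The Tdg null liver of pair_b, which the study left out, holds no peak base in any of the 7 windows and is kept out of every value below, which leaves 9 Tdg null and 10 WT libraries.

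Slit proteins are large secreted proteins that bind Robo receptors on growing axons and migrating cells, and they are best known for repelling commissural axons from the midline of the hindbrain and spinal cord. Robo1 and Robo2 carry most of this response. Robo3 is needed for axons to cross the midline, and Robo4 is found mainly on blood vessels. Slit2 and Slit3 each hold a copy of the microRNA gene for miR-218 in an intron. Each sample is a bulk tissue, in which fewer cells carrying 5fC and less 5fC per cell cannot be told apart.

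The first set of sequences shows stretches that lay under peaks of all 9 Tdg null libraries, the most shared sites of each long gene that has one. They are printed on the gene's strand in mm9, with each CpG dinucleotide, the usual site of cytosine methylation, in capitals. The Slit3 stretch lies in intron 1 (chr11:34936901-34939100), 2.17 kb from the gene's 5′ end, and the 300 bases with the most CpG within it are shown (chr11:34937768-34938067).
Slit3, intron 1 of 35: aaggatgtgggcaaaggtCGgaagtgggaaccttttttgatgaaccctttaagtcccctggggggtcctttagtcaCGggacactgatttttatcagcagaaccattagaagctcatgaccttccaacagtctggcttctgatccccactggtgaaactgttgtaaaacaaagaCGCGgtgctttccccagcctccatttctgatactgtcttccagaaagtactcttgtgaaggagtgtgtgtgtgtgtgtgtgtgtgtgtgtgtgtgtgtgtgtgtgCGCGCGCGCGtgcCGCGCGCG
The Robo1 stretch lies in intron 12 (chr16:72977001-72977900), was also under peaks of WT hindbrain Q and of both WT carcasses, and is shown over chr16:72977483-72977782.
Robo1, intron 12 of 28: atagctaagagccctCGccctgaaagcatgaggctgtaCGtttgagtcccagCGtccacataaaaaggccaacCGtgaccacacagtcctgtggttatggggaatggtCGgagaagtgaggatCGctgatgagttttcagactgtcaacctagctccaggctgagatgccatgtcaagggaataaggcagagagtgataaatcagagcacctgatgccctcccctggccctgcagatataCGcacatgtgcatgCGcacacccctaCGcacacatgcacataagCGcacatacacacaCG
The Slit2 stretch (chr5:48395001-48395700, intron 4) and the Robo2 stretch (chr16:73946601-73947000, intron 17) are shown over chr5:48395001-48395300 and, on the minus strand, chr16:73946601-73946900.
Slit2, intron 4 of 37: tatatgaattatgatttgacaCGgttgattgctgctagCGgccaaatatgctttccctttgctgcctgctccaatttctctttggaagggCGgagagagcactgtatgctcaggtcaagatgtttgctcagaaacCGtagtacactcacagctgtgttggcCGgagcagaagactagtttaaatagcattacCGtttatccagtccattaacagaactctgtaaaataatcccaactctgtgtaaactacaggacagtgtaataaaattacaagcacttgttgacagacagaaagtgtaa
Robo2, intron 17 of 27: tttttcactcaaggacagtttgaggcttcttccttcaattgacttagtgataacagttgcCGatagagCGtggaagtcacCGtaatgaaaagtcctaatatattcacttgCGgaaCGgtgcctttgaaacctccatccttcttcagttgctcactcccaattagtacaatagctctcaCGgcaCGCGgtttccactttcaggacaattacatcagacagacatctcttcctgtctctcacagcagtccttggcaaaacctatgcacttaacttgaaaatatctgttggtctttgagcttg
The whole stretches hold 46 CpG in 2200 bases of Slit3, 27 in 900 bases of Robo1, 11 in 700 bases of Slit2 and 8 in 400 bases of Robo2, a higher density in each than over the gene's window. No base of the Slit1, Robo3 and Robo4 windows lay under peaks of all 9.

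The second set shows, for each of the 5 genes with WT peaks, a stretch that lay under peaks of the most WT libraries. Peaks in WT tissue mark sites where 5fC was found with TDG present. Where stretches tied for the most libraries, the longest was taken. Robo2 had 3 tied stretches, and Slit1 had 2 of the same length, of which 1 is printed. The Robo1 stretch lies in intron 2 (chr16:72888301-72888600) and was under peaks of 5 WT libraries, namely hindbrains O and Q, both carcasses and the liver of pair_a, and of 8 of 9 Tdg null libraries.
Robo1, intron 2 of 28: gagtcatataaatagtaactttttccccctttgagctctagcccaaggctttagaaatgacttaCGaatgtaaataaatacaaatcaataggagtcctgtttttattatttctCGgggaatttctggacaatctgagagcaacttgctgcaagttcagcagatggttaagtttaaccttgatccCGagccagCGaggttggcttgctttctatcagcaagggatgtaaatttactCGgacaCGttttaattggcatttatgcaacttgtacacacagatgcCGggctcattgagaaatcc
The Slit3 stretch (chr11:35289001-35289400, intron 4, shown over chr11:35289087-35289386) was under peaks of 4 WT libraries, hindbrain Q, both carcasses and the heart of pair_b, and of 8 of 9 Tdg null libraries.
Slit3, intron 4 of 35: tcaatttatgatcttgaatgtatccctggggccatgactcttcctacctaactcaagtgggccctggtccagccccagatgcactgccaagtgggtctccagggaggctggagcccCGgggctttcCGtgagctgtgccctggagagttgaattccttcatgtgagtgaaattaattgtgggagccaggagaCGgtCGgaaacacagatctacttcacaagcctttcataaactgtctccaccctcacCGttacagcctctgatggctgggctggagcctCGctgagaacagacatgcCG
The Robo2 stretch (chr16:74070901-74071400, intron 2, shown on the minus strand over chr16:74070951-74071250) was under peaks of 3 WT libraries, hindbrain Q and both carcasses, and of 7 of 9 Tdg null libraries.
Robo2, intron 2 of 27: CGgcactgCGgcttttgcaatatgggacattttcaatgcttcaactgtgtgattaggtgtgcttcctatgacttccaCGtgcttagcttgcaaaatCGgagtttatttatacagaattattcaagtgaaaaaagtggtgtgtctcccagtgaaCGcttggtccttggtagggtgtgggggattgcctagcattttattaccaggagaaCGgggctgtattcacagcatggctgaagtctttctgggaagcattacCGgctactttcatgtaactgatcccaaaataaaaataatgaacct
The Slit1 stretch (chr19:41735801-41736300, intron 4, shown on the minus strand over chr19:41735949-41736248) was under peaks of the WT hindbrains A, O and Q, of all 4 Tdg null hindbrains and of both Tdg null carcasses, and of no heart or liver library. The tied stretch, 48855 to 49354 bases from the 5′ end, differed. It was under peaks of WT hindbrain Q and both WT carcasses, and of all 4 Tdg null hindbrains, both carcasses, the heart of pair_a and the liver.
Slit1, intron 4 of 36: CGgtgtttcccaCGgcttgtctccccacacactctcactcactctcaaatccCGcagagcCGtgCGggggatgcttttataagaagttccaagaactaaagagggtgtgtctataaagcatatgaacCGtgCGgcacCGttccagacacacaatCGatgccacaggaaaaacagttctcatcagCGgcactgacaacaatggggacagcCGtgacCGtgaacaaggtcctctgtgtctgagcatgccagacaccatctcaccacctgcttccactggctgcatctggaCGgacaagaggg
The Slit2 stretch (chr5:48611101-48611300) holds 145 coding bases of exon 14 and was under peaks of the same 9 libraries as the Slit1 stretch printed above.
Slit2, exon 14 of 38: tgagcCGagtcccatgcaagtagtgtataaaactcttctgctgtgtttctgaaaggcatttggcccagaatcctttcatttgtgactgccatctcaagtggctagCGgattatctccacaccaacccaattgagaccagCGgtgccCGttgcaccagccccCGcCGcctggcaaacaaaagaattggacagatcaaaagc
For contrast, the 250 bases upstream of the Slit3 5′ end (chr11:34934476-34934725) belong to the gene start richest in CpG of the 7 and lay under no peak of any of the 19 libraries.
Slit3, upstream of the gene: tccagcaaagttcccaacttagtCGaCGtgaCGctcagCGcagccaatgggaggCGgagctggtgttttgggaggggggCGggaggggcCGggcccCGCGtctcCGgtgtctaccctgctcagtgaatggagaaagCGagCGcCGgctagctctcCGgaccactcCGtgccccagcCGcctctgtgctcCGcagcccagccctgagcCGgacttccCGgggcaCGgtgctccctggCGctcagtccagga

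Among the ligands, Slit1 and Slit3 were covered more than Slit2 in each of the 9 Tdg null libraries. Slit1 (chr19:41674747-41818155, minus strand) had 11.0%, 11.1%, 14.6% and 12.0% of its window under peaks in Tdg null hindbrains A, O, Q and Z. The values were 20.1% and 7.70% in the Tdg null hearts of pair_a and pair_b, 26.1% and 31.2% in the carcasses, and 6.04% in the liver. In percent of the window the carcasses were thus the highest and the liver the lowest, but the libraries differ in total peak length. Of the whole genome, peaks covered 5.39% and 7.55% in these carcasses, 8.09% and 3.64% in the hearts, 2.68% to 3.67% in the hindbrains and 3.03% in the liver. Values relative to these are given below. In WT hindbrain, Slit1 had 0.339%, 0.678%, 1.73% and 0% in the same litters, and in WT carcass 2.58% and 1.76%, with no peak in WT heart or liver.

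Slit3 (chr11:34934726-35522009, plus strand) is the longest member, with 58 to 77 peaks in each Tdg null hindbrain. Its coverage there was 13.2%, 8.95%, 12.4% and 11.8%. In the Tdg null hearts it was 30.8% and 12.3%, in the carcasses 24.7% and 34.9%, and in the liver 15.2%, the highest liver value of any member. WT carcass was the WT tissue with the most Slit3 coverage, at 4.72% and 3.43%, and in WT hindbrain it was 0% in litters A and Z, 0.135% in O and 1.22% in Q.

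Slit2 (chr5:48374394-48697521, plus strand) is the ligand with the lowest CpG density, and was covered least of the 3 in each Tdg null library. Tdg null hindbrains had 3.73%, 3.85%, 4.10% and 4.62%, hearts 4.77% and 1.90%, carcasses 9.05% and 13.8%, and the liver 1.80%. WT hindbrain values were 0.122%, 0.0917%, 0.489% and 0%. All 4 Tdg null hindbrains lay above all 4 WT hindbrains for each of the 3 ligands, as they did for 48.8% of all protein-coding windows and 91.8% of those of at least 100 kb.

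Robo1 was covered more than the other long receptor gene, Robo2, its neighbour on chromosome 16, in each Tdg null library. Robo1 (chr16:72663394-73046340, plus strand) had 9.20%, 8.92%, 10.4% and 12.2% in Tdg null hindbrains A, O, Q and Z. It had 14.5% and 3.88% in the hearts, 24.5% and 30.4% in the carcasses and 9.43% in the liver. WT hindbrain had 0.207%, 0.569%, 2.04% and 0%, and WT carcass 4.19% and 3.49%. Robo2 (chr16:73892551-74412070, minus strand) had 4.15%, 3.90%, 4.49% and 5.77% in Tdg null hindbrain, 4.30% and 1.18% in heart, 10.2% and 13.8% in carcass and 2.81% in liver. In WT hindbrain Robo2 had 0%, 0.115%, 0.344% and 0%.

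Robo3 and Robo4 lie side by side on chromosome 9 in short windows of 21.5 and 16.1 kb, so 1 peak moves their values by several percentage points. Robo3 (chr9:37223254-37240760, minus strand) had 3 peaks in Tdg null hindbrain A (8.83% of the window), 2 in hindbrain Q (3.72%) and none in hindbrains O and Z. The Tdg null hearts had 1 peak each (5.11% and 4.65%), the carcass of pair_b 2 (5.11%), and the carcass of pair_a and the liver none. Robo4 (chr9:37209482-37221608, plus strand) had 1 peak in Tdg null hindbrains A, O and Q and 2 in hindbrain Z, covering 4.34%, 3.10%, 3.72% and 8.06%. Its hearts had 9.30% and 4.96%, its carcasses 5.58% and 8.68%, and its liver none. No WT library held a peak in either window, and no library had a peak over the bases that the windows share.

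**Figure D1:**
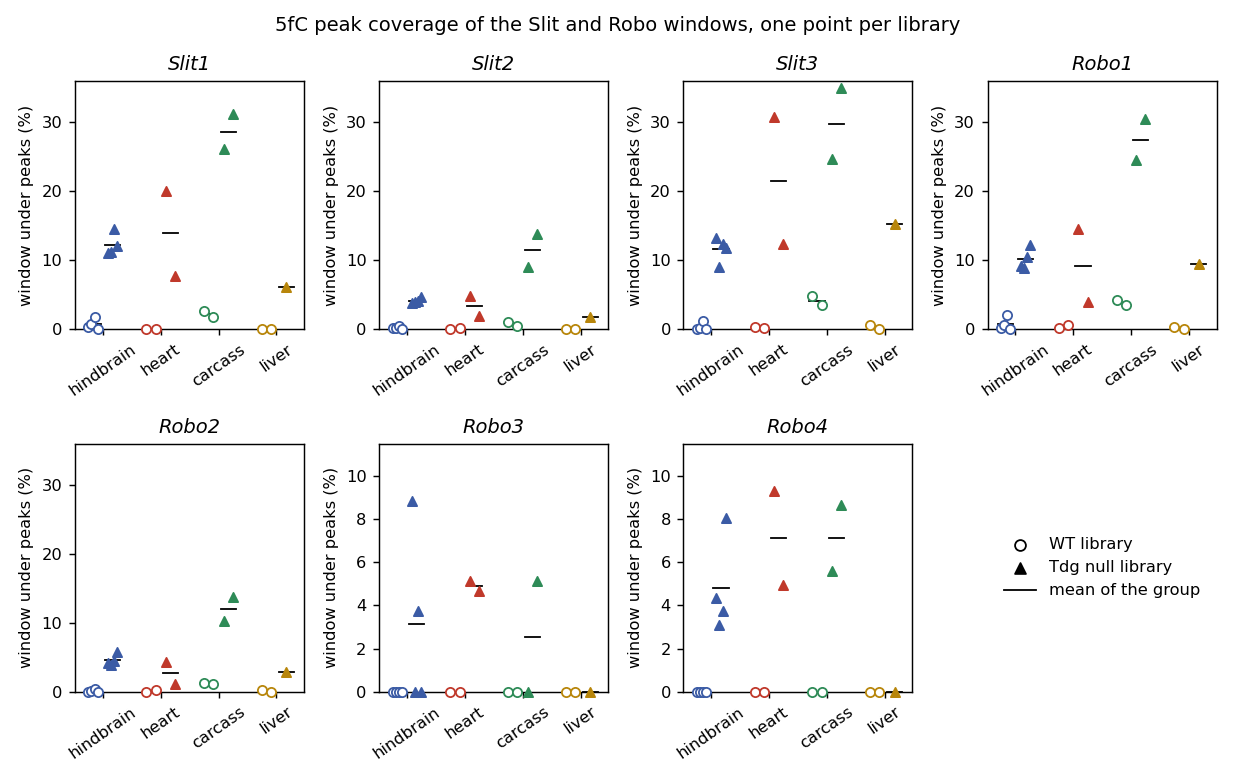
Percent of each gene's window under 5fC peaks, with 1 point per library (open circles WT, filled triangles Tdg null) and a bar at the mean of each tissue and genotype, for the 19 libraries. The Tdg null carcasses sit highest for Slit1, Slit2, Robo1 and Robo2, and the scale of the Robo3 and Robo4 panels ends at a lower value than that of the others.

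Over the 7 windows pooled, coverage was 8.18% ± 0.950 (SD, n = 4) in Tdg null hindbrain, 10.5% ± 6.86 (n = 2, 15.3% and 5.62%) in heart, 21.2% ± 4.46 (n = 2) in carcass and 7.74% (n = 1) in liver. The WT values were 0.344% ± 0.479 (n = 4), 0.154% ± 0.0844 (n = 2), 2.51% ± 0.503 (n = 2) and 0.149% ± 0.197 (n = 2). Without litter Q the WT hindbrain mean was 0.109%. The 2 WT hearts had 0.0945% and 0.214% and the 2 WT livers 0.00994% and 0.288%, and with peaks of at least 600 bp the means were 0.183% in WT hindbrain, 0.0423% in heart and 0.0497% in liver. WT libraries held far fewer peaks over the whole genome as well, 1563 to 42012 against 101344 to 254319 in Tdg null libraries, so a higher percentage in Tdg null tissue is not particular to these genes. Tdg null hindbrain lay above WT hindbrain with no overlap for 6 of the 7 members, Robo3 being the exception, beside the 48.8% of all windows. Robo4 dropped out, leaving 5, without the flanks and with peaks of at least 600 bp. For the 5 members with windows of at least 100 kb (Slit1, Slit2, Slit3, Robo1 and Robo2) it held for all 5, and among all windows of that length for 91.8%. The members are therefore not set apart by that count. When each library's coverage was divided by its own genome-wide coverage, 3 of the 7, Slit3, Robo2 and Robo4, had all Tdg null hindbrains above all WT hindbrains. This stood beside 32.0% of all windows, and 2 of the 5 long members beside 35.7% of the long windows. Robo4 counts here because no WT hindbrain had a peak in its short window, and the division leaves such a value at 0. Single WT peaks weigh heavily too: 1 peak of 500 bases put Slit1 in WT hindbrain A at 8.87 times the genome.

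Slit1, Slit3 and Robo1 had a larger percent of the window under peaks in Tdg null hindbrain than most windows of at least 100 kb. Slit2 and Robo2 lay near the middle. In Tdg null hindbrain the median of the 5 long members was 10.2%, and that of all 2504 long windows 4.39%. The medians were 27.5% against 8.26% in carcass, 9.20% against 7.60% in heart and 6.04% against 3.47% in liver. Slit1, Slit3 and Robo1 stood above 95.6%, 94.4% and 89.2% of the long windows in Tdg null hindbrain, while Slit2 and Robo2 stood above 47.6% and 51.6%. The CpG content of the windows was 14.6 per kb in Slit1, 12.0 in Slit3 and 10.8 in Robo1, but 6.91 in Slit2 and 6.34 in Robo2, with a median of 8.91 over the long windows. Across the 2504 long windows, CpG density and mean coverage in Tdg null hindbrain had a Spearman's rho of 0.83, and of 0.78 in liver, given as a description since the genes share their libraries.

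Relative coverage, the percent of a window under peaks divided by the percent of the ungapped genome under peaks in the same library, takes out the total length of peaks. The pooled windows were above the genome in all 9 Tdg null libraries, by 1.28 ± 0.06 on the log2 scale in hindbrain (SD, n = 4), 0.77 ± 0.21 in heart (n = 2), 1.72 ± 0.04 in carcass (n = 2) and 1.35 in liver (n = 1). Taken as the mean of the 7 genes, the liver value was 0.73. Long windows in general lie above the genome. Their median was 1.31 times the genome in hindbrain, 1.27 in heart, 1.28 in carcass and 1.14 in liver. In hindbrain Slit2 and Robo2 were near that median, at means of 1.22 and 1.36 times. Slit2 and Robo2 were below the genome in heart, at 0.589 and 0.521 times for Slit2 and 0.531 and 0.325 times for Robo2. In liver they were below it too, at 0.595 and 0.926 times. In carcass they were above it, at 1.68 and 1.83 times for Slit2 and at 1.90 and 1.83 times for Robo2. Robo1 was at 1.79 and 1.06 times the genome in heart, 2.56 to 3.33 times in hindbrain, 3.11 times in liver and 4.55 and 4.03 times in carcass.

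Slit2, Robo1 and Robo2 were thus the members for which both Tdg null carcasses lay above the other 7 Tdg null libraries. That pattern held for 2.91% of all protein-coding windows and 9.86% of the long ones. For the same 3 genes both Tdg null hearts lay below the other 7 libraries, as in 3.67% of all windows and 13.9% of the long ones. For Slit2 the margin was small, with the heart of pair_a at 0.589 times the genome and the liver at 0.595 times. No member had both hearts above the others, a pattern of 15.4% of all windows and 22.5% of the long ones. No member had all 4 Tdg null hindbrains above the other 5 libraries (5.81% of all windows, 5.59% of the long ones) or below them (3.13% and 8.95%). Slit3 went another way, with its liver at 5.01 times the genome above both carcasses at 4.58 and 4.62 times, its hearts at 3.80 and 3.37 times and its hindbrains at 3.21 to 3.66 times. In Slit1 the ranges of hindbrain, 3.06 to 4.16 times, and carcass, 4.85 and 4.13 times, overlapped, with the hearts at 2.48 and 2.12 times and the liver at 1.99 times below them. Robo3 and Robo4, with 0 to 3 peaks a library, showed no such order.

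**Figure D2:**
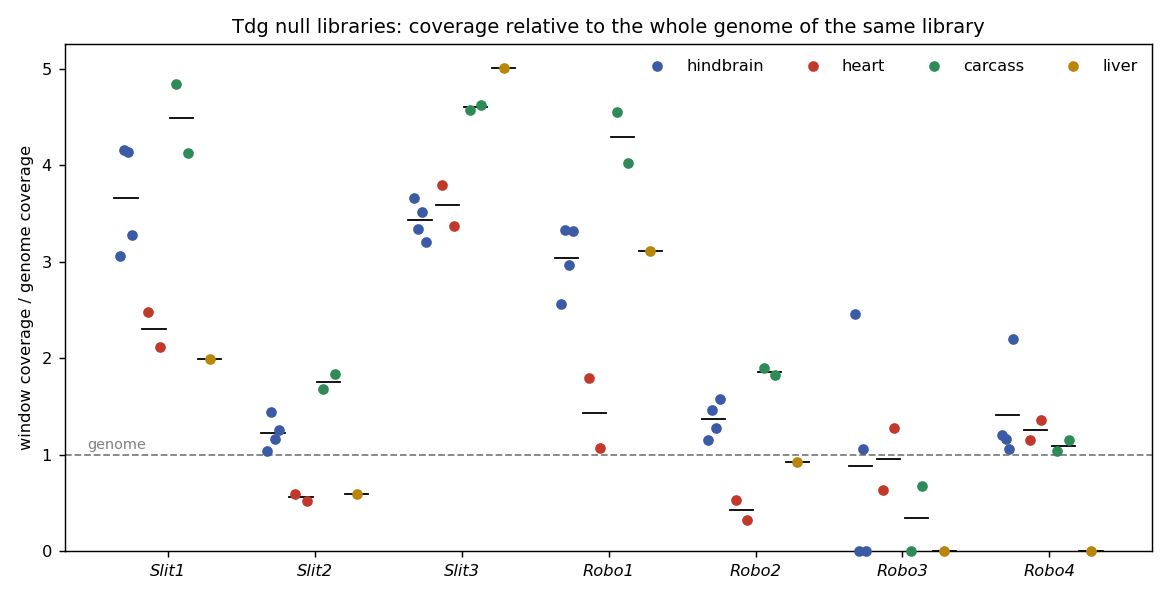
Percent of each window under peaks divided by the percent of the genome under peaks in the same Tdg null library, with 1 point per library, coloured by tissue, and a bar at each mean; the dashed line marks the genome's own level of 1. Heart and liver lie below the line for Slit2 and Robo2 and carcass above it, while Slit3 lies above 3 in all 4 tissues.

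Most bases that lay under peaks of all Tdg null hindbrains were shared with carcass, and fewer with heart. Of the pooled windows, 647.7 kb lay under a peak of at least 1 Tdg null library and 14.7 kb under peaks of all 9, of which Slit3 held 9.70 kb. Bases under all 4 Tdg null hindbrains and none of the other 5 libraries came to 1.0 kb, those under both hearts and no hindbrain or carcass to 25.5 kb, and those under both carcasses and no hindbrain or heart to 91.4 kb. The counts of libraries asked of each tissue differ, so these lengths are not measures of how specific a tissue is. Of the 82.8 kb under all 4 Tdg null hindbrains, 92.5% lay under both Tdg null carcasses and 24.6% under both Tdg null hearts. The carcass set covered 338.1 kb and the heart set 109.5 kb, of which the shared bases were 22.7% and 18.6%.

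The longest hindbrain stretch, of 400 bases, holds 78 coding bases of Slit1 beside intron 31 (chr19:41681001-41681400), and the longest in Robo1 is 200 bases of intron 6 (chr16:72951801-72952000). The longest heart stretches were 1100 bases of Robo1 intron 2 (chr16:72866201-72867300) and 1000 bases of Slit1 intron 4 (chr19:41765601-41766600). The longest carcass stretches were 1900 bases of Slit1 intron 4 (chr19:41791301-41793200) and 1600 bases of Slit3 (chr11:35323201-35324800), mostly in intron 5 and with 296 bases of annotated exon. The Robo1 heart stretch also lay under a peak of the Tdg null liver. No WT library had a peak over any of these 6 stretches.

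**Figure D3:**
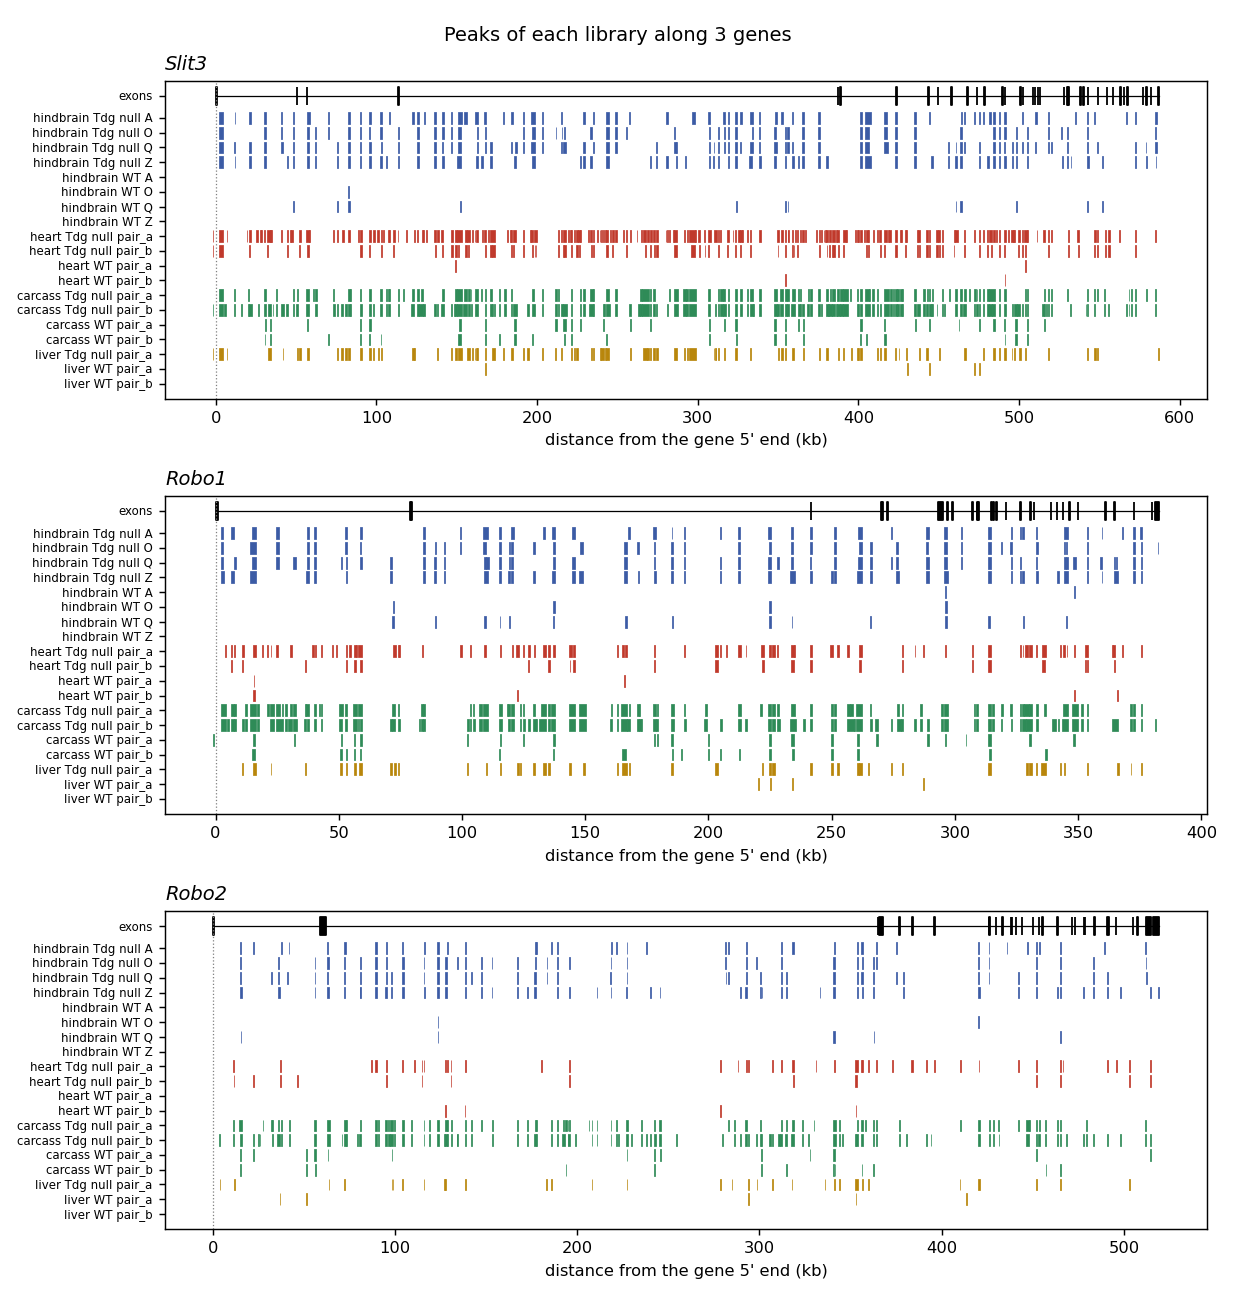
Peaks of the 19 libraries (rows, coloured by tissue) along Slit3, Robo1 and Robo2, with distance from the gene 5′ end in kb on the horizontal axis and exons in black on top. Many peaks of the 4 Tdg null hindbrains line up with each other and with those of the Tdg null carcasses, and WT rows hold few peaks outside carcass.

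The 5′ ends of the members other than Robo4 were rich in CpG and nearly free of peaks. Within 1 kb of the 5′ end, CpG density was 62.0 per kb in Slit3, 51.5 in Slit2, 46.0 in Slit1, 44.0 in Robo1, 39.5 in Robo3 and 35.5 in Robo2. In Slit3, Robo1, Robo2 and Robo3 none of the 9 Tdg null libraries had a peak there. The annotation used here begins Robo2 at its shorter transcripts, so any start farther upstream lies outside its window and was not analysed here. In Slit1 both Tdg null carcasses had one, and in Slit2 the heart of pair_a. Robo4, the vessel receptor, has a start with a CpG density of 10.5 per kb and peaks there in Tdg null hindbrains O, Q and Z. Over the 9 Tdg null libraries 4.65% of its bases were covered there on average. One WT library had a peak within 1 kb of the Robo1 5′ end. Over the 7 genes an average of 0.743% of these bases was under Tdg null peaks, against 9.54% over the whole windows. Over all 22367 protein-coding genes the same means were 5.72% and 5.46%, and over the 2504 long ones 5.83% and 7.31%. A start with no Tdg null peak within 1 kb is common, however, and was found in 50.6% of all genes and 47.7% of the long ones.

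The mean coverage of the 5 long members was higher a short distance to either side of the 5′ end, which rests on a few genes. From 1 to 5 kb downstream of the 5′ end it averaged 16.1% in Tdg null hindbrain, 13.5% in heart, 29.2% in carcass and 14.0% in liver, at 16.3 CpG per kb. Within 1 kb it averaged 0%, 0.035%, 0.450% and 0% at 47.7 CpG per kb. From 1 to 5 kb upstream it averaged 14.1% in hindbrain, 15.5% in heart, 18.0% in carcass and 4.0% in liver, at 10.2 CpG per kb. Downstream, Slit3 alone had 56.9% in hindbrain, 62.5% in heart, 65.3% in carcass and 65.0% in liver, the long stretch in intron 1 printed above. Robo1 had 23.8% in hindbrain, 5.0% in heart, 51.2% in carcass and 0% in liver there, and Slit2 none in any tissue. Upstream, Slit1 had 52.5% in hindbrain, 47.5% in heart, 62.5% in carcass and 0% in liver. The annotation holds 21 other starts more than 5 kb from the 5′ ends of the 7 genes. At 7 of them no Tdg null library had a peak within 1 kb, at 10 there were 1 to 5 such libraries, and at 2 there were 7. At the remaining 2, in Slit3 at positions 34991285 and 35358187 of chromosome 11, all 9 had one.

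Over the windows as a whole, bases under peaks held more CpG than the bases between them. Pooled over the windows, CpG density under peaks was 13.8 to 17.4 per kb in the 9 Tdg null libraries, and outside peaks 8.38 to 9.24 per kb. The log2 ratio averaged 0.82 ± 0.03 (SD) over 6 Tdg null embryos and was above 0 in 6 of 6. A two-sided exact sign-flip permutation test over embryos, with the tissues of an embryo averaged first, gave p = 0.03125, the smallest that 6 embryos allow. After Benjamini-Hochberg adjustment over 4 tests it was 0.125. With these numbers of embryos no adjusted p of the 4 tests could fall below 0.0625, so none could pass a threshold of 0.05 and missing it carries no information. Over the whole genome the same ratio was 1.05 ± 0.05 in those embryos, a higher value than in these windows, with no test of the difference. In the windows of WT embryos the ratio was 1.16 ± 0.07 and above 0 in 5 of 5. The exact permutation p was 0.0625, the smallest possible, and 0.125 after adjustment. WT hindbrain Z has no peak base in the windows and gave no value there. Over the whole genome the ratio of WT embryos, that of litter Z included, was 1.26 ± 0.08, also higher than in the windows and not tested against them.

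The ratio was above 0 in all 9 Tdg null libraries for each long member taken alone, in the 5 with peaks for Robo3, and in 6 of the 8 with peaks for Robo4, whose lowest value was -0.91. Of the long members Robo2 and Slit2, whose windows are poorest in CpG, had the largest means, 1.07 and 0.97, followed by Robo1 with 0.65, Slit3 with 0.57 and Slit1 with 0.44. GC content moved with CpG density, with a log2 ratio under over outside peaks of 0.16 ± 0.01 (SD) over 6 Tdg null embryos, and its part in the difference was not tested.

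**Figure D4:**
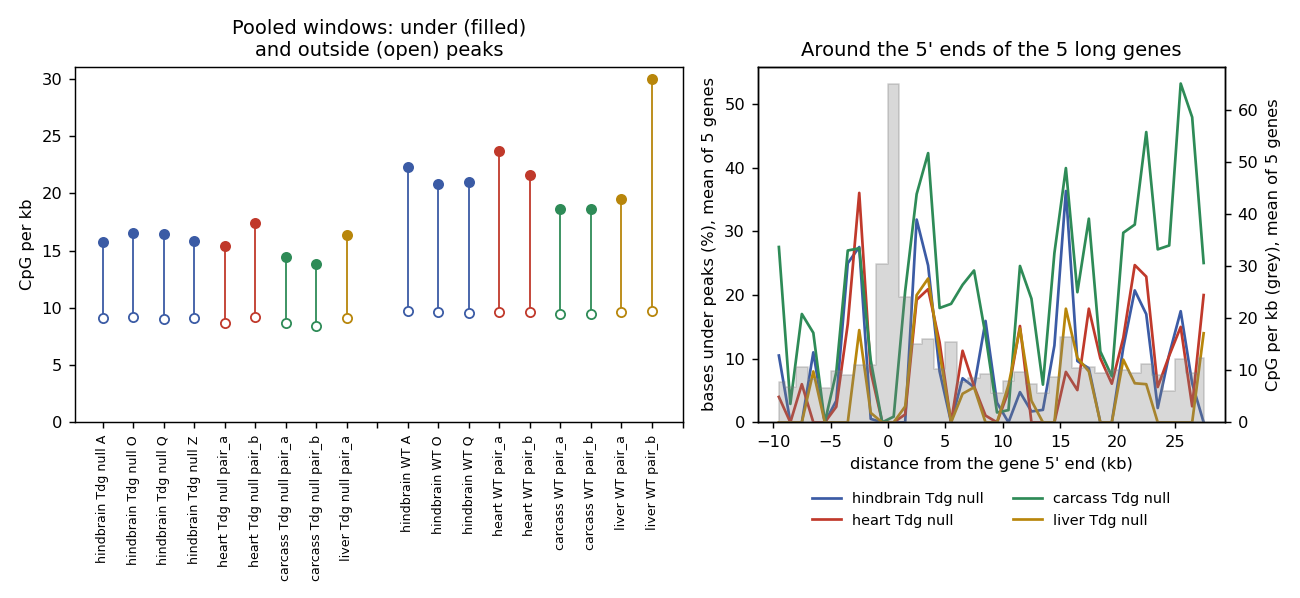
Left, CpG per kb under peaks (filled) and outside peaks (open) in the pooled windows, with 1 pair per library that has peaks there. Right, mean percent of bases under peaks in Tdg null tissues (lines) and mean CpG per kb (grey) in steps of 1 kb around the 5′ ends of the 5 long genes, which shows coverage near 0 in the steps next to the 5′ end, where CpG density is highest.

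Whether exons or introns were covered more depended on the setting. The log2 ratio of the share of exon bases to the share of intron bases under peaks averaged -0.28 ± 0.45 (SD) over 6 Tdg null embryos, below 0 in 4 of 6, with an exact sign-flip permutation p of 0.156 and an adjusted p of 0.208. Over all genes it averaged 0.27 ± 0.15 in Tdg null embryos and 0.51 ± 0.16 in WT embryos, that of litter Z included. Tdg null hindbrains lay near 0, from -0.20 to 0.09, with 3844 to 6160 exon bases under peaks, and the Tdg null liver was at -1.61 with 1683. With the coding sequence alone in place of whole exons the mean was 0.13, so its sign rests on how exons are defined. With peaks of at least 600 bp it was -0.74, with an exact permutation p of 0.03125, the smallest possible, and an adjusted 0.0625. In WT the ratio was -1.38 ± 2.86 over 5 embryos with an exact permutation p of 0.500 and an adjusted 0.500, and rests on 0 to 675 exon bases a library. A library with no exon base under peaks was given 0.5 base, which sets the values of -6.98 and -8.59 in the heart and liver of the WT embryo of pair_a and of -3.74 in the WT liver of pair_b. Without the embryo of pair_a the WT mean was -0.30, and with peaks of at least 600 bp it was -6.92 over 4 embryos.

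In hindbrain and carcass, WT peaks in these genes mostly lay where the Tdg null embryo of the same litter had them too. The share of WT peak bases under Tdg null peaks was 76.5%, 95.9% and 92.9% in hindbrains A, O and Q, of 1700, 4900 and 21055 WT bases. In carcass it was 75.2% and 91.5%, of 57600 and 43300 bases. In the same order, the shares over the whole genome were 66.2%, 80.0%, 76.1%, 59.9% and 77.0%. In heart the shares in the windows were 89.5% of 1900 bases and 25.6% of 4300, and in liver 27.6% of 5800. The whole-genome shares there were 32.6%, 34.2% and 33.3%, so the heart of pair_b and the liver lay below them. WT peaks of at least 2 libraries covered 36.6 kb of the windows, of which both WT carcasses together held 29.8 kb.

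The 2 miR-218 genes differed. The mature microRNA is the same from both and its seed, bases 2 to 8, is in capitals (RefSeq sequence).
mmu-miR-218-5p: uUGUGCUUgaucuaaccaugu
The hairpin in Slit3 intron 14 (chr11:35430318-35430427) lay under peaks of 5 of the 9 Tdg null libraries, namely hindbrains Q and Z, the carcass of pair_b, the heart of pair_a and the liver. The hairpin in Slit2 intron 15 (chr5:48615181-48615290) lay under none, with the nearest Tdg null peak 1411 bases away. No WT library had a peak over either, and no test was made of this difference.

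Genes that act with Slit and Robo were taken from a list of 26. Among others, it holds GTPase regulators and actin adaptors below Robo, Slit-binding proteoglycans and other guidance receptors. In 24 of the 26 all Tdg null hindbrains lay above all WT hindbrains, the exceptions being Myo9b and Prrg4, beside 48.8% of all windows. Of the 26, 11 have windows of at least 100 kb, a length at which 91.8% of all genes show this, and all 11 did. In relative coverage it was 15 of the 26, beside 32.0% of all windows, and 4 of the 11, beside 35.7% of the long ones. Plxna1, a semaphorin receptor, had the highest mean coverage in Tdg null hindbrain, 14.1%, ahead of Srgap1 and Srgap3, GTPase-activating proteins that bind the inside of Robo, at 10.3% each. The lowest were Cap1, an actin-binding protein, at 0.806% and Myo9b, a myosin that turns off RhoA, at 0.571%. Both Tdg null hearts were above the other 7 libraries in relative coverage for 12 of the 26, such as Abl1, Enah and Vasp, beside 15.4% of all windows and 22.5% of the long ones. They were below them for 3, Srgap3, Nell2 and Prrg4, beside 3.67% and 13.9%. The carcasses were above the others for 1, Nell2, a ligand of Robo3, beside 2.91% and 9.86%. The hindbrains were above for 2, Nck1 and Plxna1 (5.81% and 5.59%), and below for 3, Srgap1, Nck2 and Unc5b (3.13% and 8.95%). Median coverage of the list in Tdg null hindbrain was 5.38%, that of all genes 2.29% and that of the long windows 4.39%.

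The genes whose coverage over the 9 Tdg null libraries was most like that of each long member also had windows of at least 100 kb. Among 9106 genes compared, they were Grik3, Wscd2 and Zmat4 for Slit1, Fam190a, Kifap3 and Lphn3 for Slit2, and Ptprg, Rarb and Frmd4a for Slit3. For Robo1 they were Npas3, Eya4 and Asxl3, and for Robo2 Pcdh15, Epha3 and Adarb2. Pearson's r was 0.989 to 0.998 in these, a value that the total length under peaks of each library, shared by all genes, raises. For the short receptors the nearest were Xrcc1, Tusc5 and Nlrc3 for Robo3, with r of 0.88 to 0.91, and Slc29a3, Add2 and Pdgfra for Robo4, with r of 0.95 to 0.96.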

How the data were processed

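5fC-enriched DNA was prepared by the authors with a biotinylated, cleavable aldehyde-reactive probe and streptavidin beads, and amplified by PCR. Reads were trimmed by the authors (Trim Galore) and mapped with unchanged Bowtie2 parameters on mouse build NCBIM37 (mm9). They ran the MACS caller of SeqMonk on every pull-down by itself, with fragments set to 200 bp and a p threshold of 1e-05. The use of an input library and the removal of duplicates are not given in the sources used here. The deposited values are peak positions (start and end), with no counts or heights, so depth is unknown, each peak counts alike, and a library with weaker enrichment or fewer reads gives fewer peaks. Positions were read as 1-based on their grid of 100 bases.

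Coverage is the percent of a window's bases under peaks. Gene models came from GENCODE vM1, and RefSeq supplied the miR-218 sequence. All 7 members were named, with their longest shared and tissue stretches, the 3 genes nearest in Pearson correlation (windows of at least 20 kb with a mean of at least 1%), and the pathway genes with the 3 highest and 2 lowest means in Tdg null hindbrain. Members and lists were chosen with earlier results of these data known. Tests were two-sided exact sign-flip permutation tests over embryos with Benjamini-Hochberg adjustment over 4 tests. The litter given for each mouse in the labels pairs WT and Tdg null embryos. The hindbrain difference within litters was computed as the paired alternative. Peak positions do not check the genotype, since a deletion is not read from them: 0% to 13.6% of the Tdg window lay under Tdg null peaks. Coverage and calls were tested on simulated peaks. Python 3.11.15, numpy 2.4.6, pandas 2.3.3, scipy 1.17.1 and matplotlib 3.10.9 were used.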

Additional observations from a re-analysis of the deposited data

Results flagged for a closer look

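In WT hindbrain, Slit3 coverage in litter Q was 1.22%, apart from 0%, 0% and 0.135% in litters A, Z and O. Its gap to the nearest value was 0.889 of the whole range, a description and not a test, since the genes were chosen with these values known. WT hindbrain Q also held the most peaks of the 4 WT hindbrains over the whole genome, 21606 against 1563, 8989 and 1563, and the part of this in the Slit3 value was not tested. Of 15 sets of hindbrain values looked at in this way, it was the 1 that stood apart.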

How the results depend on the processing

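The depth of the libraries is unknown, and only 1 Tdg null liver and 2 hearts and carcasses per genotype limit the precision. With peaks of at least 600 bp, pooled coverage was 6.93% in Tdg null hindbrain and 6.43% in liver, and in WT 1.91% in carcass, 0.183% in hindbrain, 0.0423% in heart and 0.0497% in liver, with relative coverage 1.43 in Tdg null hindbrain and 1.78 in carcass (log2). With each gene's own chromosome as the expectation these last were 1.13 and 1.58, and as the mean of the 7 genes 1.10 and 1.40. Tdg null liver went from 1.35 to 0.73 as the mean of the 7 genes. Relative coverage in place of percent lowered the count of members whose hindbrains do not overlap from 6 to 3, beside 32.0% of all windows, and leaving out the flanks or peaks under 600 bp lowered it to 5, without Robo4. With the coding sequence alone, the exon over intron ratio turned from -0.28 to 0.13, and with peaks of at least 600 bp it was -0.74 in Tdg null and, from -1.38, -6.92 in WT embryos. With first exons left out they were -0.17 and -1.07, and as the mean of the genes' ratios -0.11 and -3.87. Leaving out 1 embryo gave -0.35 to -0.11 in Tdg null, the latter without that of pair_a, and -2.24 to -0.30 in WT. The cause of these shifts was not tested. Leaving out 1 litter moved the log2 fold of mean hindbrain coverage, Tdg null over WT, from 4.57 to between 4.11 and 6.20, the latter without litter Q. The replicate block, taking differences within litters, left the count of members at 6 and the hindbrain difference at 7.83 percentage points. The latter had to stay, since the mean of the differences equals the difference of the means. The differences within litters had an SD of 1.02. The SD of single libraries, pooled over the 2 genotypes, was 0.753, which is not a spread of differences and cannot be set against it. In all, 145 of 160 alternative values kept their direction and moved by no more than the limit for their kind. That limit was 1 SD between replicates, 1 SD of the values without 1 litter for the log2 fold, a binomial interval for the lone liver and 1.5 times for counts. For the tests only the direction counts, since no adjusted p could pass the threshold. Many of the 145 could not have failed. Leaving out 1 library cannot move a group mean by 1 SD. Leaving out 1 embryo cannot turn a CpG ratio that is above 0 in every embryo. Leaving out 1 litter cannot lower the count of members. The tally is therefore no measure of how stable the results are. Leaving out repeats was not run, since the genome sequence used here does not mark them, and the flank does not enter the exon comparison.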
